A study of Mus musculus with 16 samples.

Results

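Gene expression in the atria was compared between idKO mice, built to lose the transcription factor genes Meis1 and Meis2 in adult heart muscle, and their control littermates. The comparison used 8 atrial libraries, 4 from idKO and 4 from control mice, of the 16 libraries in the series; the other 8 are the ventricles of the same animals. A gene was included where it reached at least 1 CPM, that is 1 count per M of the column sum, in 4 or more of the 8 atria, which kept 14523 of the 16118 genes in the table. All mice were adult male littermates with both genes floxed on both chromosomes (Meis1flox/flox and Meis2flox/flox), and hearts were collected 2 weeks after induction with tamoxifen. The idKO mice carried α-MHC-MerCreMer as tg/wt, a Cre recombinase that enters the nucleus when tamoxifen binds it. Controls were wt/wt for that transgene. The promoter of the transgene is that of a cardiomyocyte myosin, so fibroblasts, vessels and other cells of the atrial wall are not its targets. Since no control carried the transgene, its own effects and those of losing the Meis genes cannot be told apart.

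Values are read counts per M effective reads, with 0.5 read added to each count, and are called normalised values here. The libraries held 13.1 to 19.8 M reads in genes, and 16.3% to 18.2% of these came from mitochondrial genes. The atrial label was checked against defining markers of the chambers. Nppa, the hormone ANP of atrial muscle, averaged 25144 in control atria against 185 in control ventricles. Myl7, the atrial myosin light chain, averaged 5077 against 11.2, and Bmp10, a growth factor of the right atrium, 1973 against 0.408. Myl2, the ventricular light chain, averaged 13.9 against 8396. The first 3 principal components of the 8 atria took 20.6%, 16.7% and 15.3% of the variance. Control and idKO libraries overlapped along each of them. Along the first, idKO atria 2, 3 and 4 lay below every control, and idKO atrium 1 lay within the control range.

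MEIS1 and MEIS2 are homeodomain proteins of the TALE class that bind DNA together with other homeodomain proteins. They are known from the development of the heart, limbs and blood, and MEIS1 also from the withdrawal of cardiomyocytes from the cell cycle after birth. Atrial muscle differs from ventricular muscle in its myosin light chains, its ion channels and its release of natriuretic peptides, which act on other tissues through cyclic GMP.

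In total RNA of the atria both targeted genes were still present at or near the control level. Meis1 (chromosome 11, 18879817 to 19018985 in build GRCm38) measured 27.3, 27.9, 25.7 and 32.4 in control atria and 26.4, 30.3, 28.9 and 33.01 in idKO atria. The groups overlapped, with means of 28.3 ± 2.86 and 29.7 ± 2.76 (SD, n = 4 each; exact permutation test, two-sided, p = 0.514). Meis2 (chromosome 2, 115863064 to 116065839) measured 22.1, 18.7, 19.4 and 19.7 in control atria and 15.3, 18.98, 18.05 and 18.5 in idKO atria. The second idKO atrium lay within the control range and the other 3 below it, the first by the widest margin. The Meis2 means were 20.0 ± 1.48 and 17.7 ± 1.64, so that idKO atria held 88.8% of the control level (SD, n = 4 each; exact permutation p = 0.057, adjusted to 0.114 over the 2 targeted genes, where 4 against 4 can reach 0.029). Across all genes, the log2 fold change of Meis2 was -0.16, 95% interval -0.38 to 0.05 (limma adjusted p = 0.966). In bulk atria, fewer cells of a type and less RNA per cell cannot be told apart. Any transcripts of Meis genes in cells outside the muscle would be part of these totals, and their share was not tested. The labels do not name the floxed exons, so transcripts of a deleted allele may also be counted.

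The related Meis3 measured 6.42 to 9.99 in control and 7.51 to 8.93 in idKO atria and was not called. Of 10 TALE genes tested, 0 were called by limma, and all 10 had a 95% interval within 1.5-fold either way. Over all genes, limma called 3 of 14523, or 0.0207%, and 79.5% had an interval within 1.5-fold. Intervals are on the log2(value + 1) scale throughout, which compresses the fold changes of low genes.

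**Figure D1:**
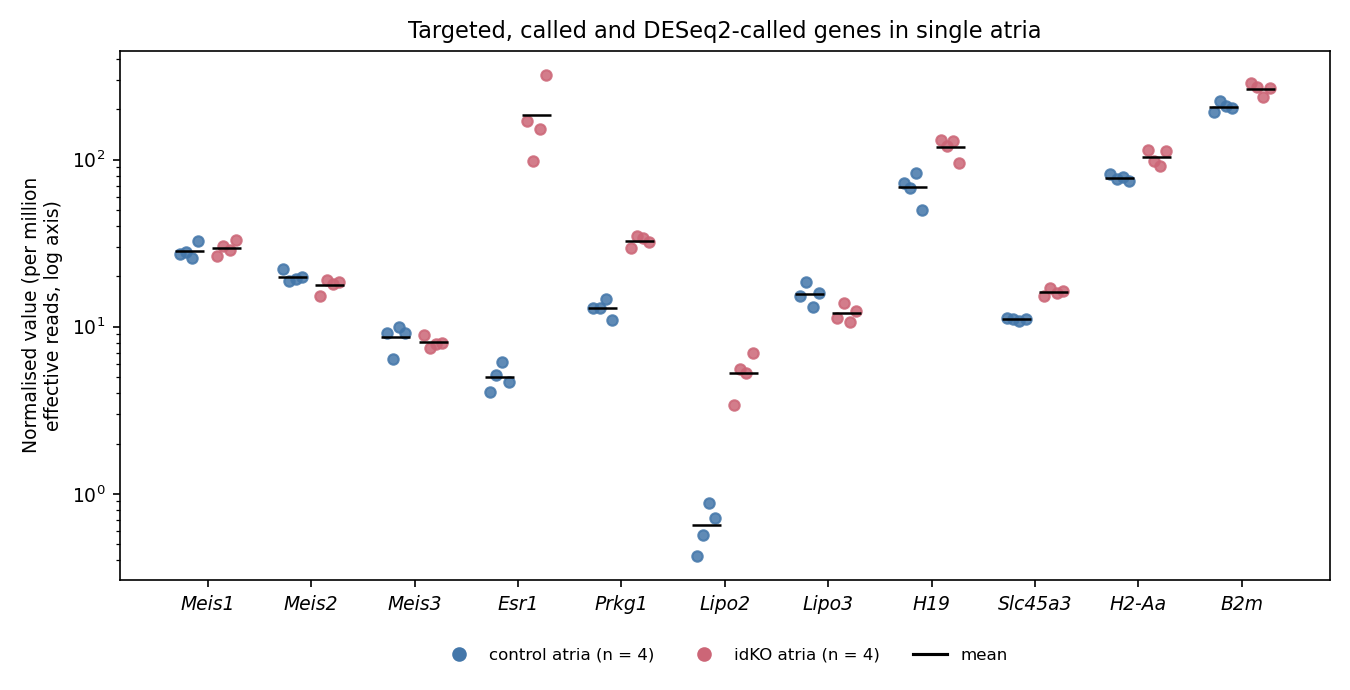
Normalised value of 11 genes (log axis) in each control atrium (blue) and each idKO atrium (red), with the mean of 4 as a black line. Meis1, Meis2 and Meis3 overlap between groups, Esr1, Prkg1 and Lipo2 stand clear of the controls in every idKO atrium, and Lipo3 lies slightly lower.

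Of all genes tested, 3 rose in idKO atria at a Benjamini-Hochberg adjusted p under 0.05 with limma: Esr1, Prkg1 and Lipo2. Each of them was also called by edgeR and DESeq2 and in each of the 8 fits that left out 1 atrium. None fell with limma or edgeR, where 297 genes were lower at an unadjusted limma p under 0.05 (2.05%), and DESeq2 called 2 lower (0.0138%). On the higher side, 373 genes had an unadjusted p under 0.05 (2.57%).

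Esr1 (chromosome 10, 4611593 to 5005614) encodes the oestrogen receptor alpha, of which MerCreMer carries the domain that binds tamoxifen, on both sides of the Cre. It measured 4.06, 5.17, 6.17 and 4.67 in control atria and 170.4, 98.7, 154 and 322 in idKO atria. Every idKO atrium stood far above every control, and idKO atrium 4 had about the level of idKO atria 1 and 3 combined. The log2 fold change was 4.84, 95% interval 4.25 to 5.42 (limma adjusted p = 7.8e-06). Reads from that domain of the transgene can be counted under Esr1. The Esr1 mean in idKO atria was 186, against 3099 in the ventricles of the same mice, and the genotype difference was smaller in atria by 5.82 on the log2 scale (interaction adjusted p = 8.2e-08, limma). The nearest tested genes on either side were not called. Syne1, a nuclear envelope protein, had a log2 fold change of -0.035, and Armt1 of 0.15.

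Prkg1 (chromosome 19, 30564489 to 31765033, minus strand) encodes cyclic GMP-dependent protein kinase 1, through which natriuretic peptides and nitric oxide act in smooth muscle and heart. It measured 12.95, 12.99, 14.7 and 10.97 in control atria and 29.5, 34.7, 34.2 and 32.1 in idKO atria. The 2 groups were separated by a wide gap and varied little within themselves. The log2 fold change was 1.28, 95% interval 1.06 to 1.501 (limma adjusted p = 2.4e-04), with 1.21 to 1.34 when single atria were left out. Of the 60-base windows in Prkg1 transcripts, 0 occur in another gene. In ventricles Prkg1 averaged 11.3 and 19.6 (log2 fold change 0.77, limma adjusted p = 0.025), and the chambers did not differ in this effect past the threshold (interaction 0.51, limma adjusted p = 0.628).

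Lipo2 (chromosome 19, 33719670 to 33751359, minus strand) belongs to a cluster of lipase-like genes on the same chromosome as Prkg1. It measured 0.425, 0.567, 0.882 and 0.716 in control atria and 3.39, 5.57, 5.27 and 6.94 in idKO atria. These rest on 5 to 12 reads in control and 43 to 128 reads in idKO atria, and the groups did not overlap. The log2 fold change was 1.91, 95% interval 1.45 to 2.37 (limma adjusted p = 0.005), on a scale where 1 is added before the logarithm and low genes are compressed. In ventricles the log2 fold change was 2.35 (limma adjusted p = 2.0e-05). At a filter of 5 CPM Lipo2 was no longer tested.

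In GENCODE M21, from which the spans of genes in the table are taken, Lipo2 lies inside its neighbour Lipo3 (chromosome 19, 33555160 to 33761951, same strand). RefSeq places the starts differently, with that of Lipo2 at the upstream end of this span. The copies resemble each other upstream of these starts, which is why both are shown. The 250 bases before each RefSeq start read, 5′ to 3′ on the minus strand (RefSeq, build GRCm38.p6), Lipo2 at chr19:33761952-33762201 and Lipo3 at chr19:33590312-33590561, as follows. Capitals mark the core hexamer that MEIS proteins are known to bind, here in its reverse complement.
Lipo2: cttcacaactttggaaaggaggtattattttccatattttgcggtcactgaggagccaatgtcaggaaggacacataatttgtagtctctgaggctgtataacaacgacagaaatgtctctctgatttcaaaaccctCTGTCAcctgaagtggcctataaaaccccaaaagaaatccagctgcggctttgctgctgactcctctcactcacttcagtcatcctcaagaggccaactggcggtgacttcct
Lipo3: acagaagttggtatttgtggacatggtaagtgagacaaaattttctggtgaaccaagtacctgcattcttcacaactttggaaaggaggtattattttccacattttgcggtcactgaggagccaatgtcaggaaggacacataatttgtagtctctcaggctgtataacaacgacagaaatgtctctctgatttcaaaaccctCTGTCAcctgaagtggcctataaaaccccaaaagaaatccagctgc
Shifted by 67 bases, the 2 windows matched at 181 of 183 overlapping bases, and their longest identical run was 92 bases. The hexamer searched was TGACAG, or CTGTCA on the other strand. Each of these windows held it 1 time, and the 2 windows before the alternative starts of Prkg1 and the 2 windows listed for Esr1 held it 0 times. Among all 32851 windows of this length, 15.9% held it. A match is a description of the letters and not evidence that MEIS binds there.

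Reads were 60 bases long, and some reads of the 3 lipase-like copies could come from more than 1 of them. Of the 60-base windows in Lipo2 transcripts, 37.8% also occur in other genes. The share was 18.8% for Lipo3 and 33.1% for Lipo4. Lipo3 measured 15.3, 18.4, 13.2 and 15.8 in control atria and 11.3, 13.8, 10.7 and 12.4 in idKO atria. It tended the other way, with a log2 fold change of -0.35, 95% interval -0.62 to -0.082 (limma adjusted p = 0.966), and the groups overlapped. Lipo4 was too low to be tested and had 0 reads in each of the 4 control atria and 18, 9, 43 and 40 reads in idKO atria 1 to 4. Summed over Lipo2 and Lipo3, a sum chosen after the values were seen, the atria measured 16.3 ± 2.06 in control and 17.4 ± 2.39 in idKO atria, or 106% of control (SD, n = 4 each; exact permutation p = 0.514). With Lipo4 added the sum was 116% of control (exact permutation p = 0.171). Lipo3 made up most of these sums.

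Prkg1 and Lipo2 lie about 2 Mb apart on chromosome 19. The gene that follows the start of Prkg1, A1cf (31868756 to 31952365 in RefSeq), begins 103723 bases beyond it and has no row in the table. RefSeq lists the name of an alpha-MHC-MerCreMer transgene among the synonyms of A1cf, and the labels do not say which transgenic line was used, so its part in the values of these neighbours was not tested. Among the 27 other tested genes from 2 Mb before Prkg1 to 34 Mb on this chromosome, 0 were called by limma, with a median log2 fold change of 0.04 and a range of -0.35 to 0.33. Asah2, a ceramidase on the far side of A1cf, measured 18.6 to 25.7 in control and 22.5 to 26.3 in idKO atria. Cstf2t, an RNA-processing factor that lies within the Prkg1 span on this chromosome, measured 38.9, 41.6, 36.5 and 40.5 in control atria and 30.2, 35.2, 34.3 and 32.7 in idKO atria. All idKO atria lay below the controls for Cstf2t, but it was not called (log2 fold change -0.25, 95% interval -0.41 to -0.079; limma adjusted p = 0.966). On the outer sides, Gldc, an enzyme of glycine breakdown, had a log2 fold change of 0.26, and Stambpl1, a deubiquitinase, of 0.018.

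**Figure D2:**
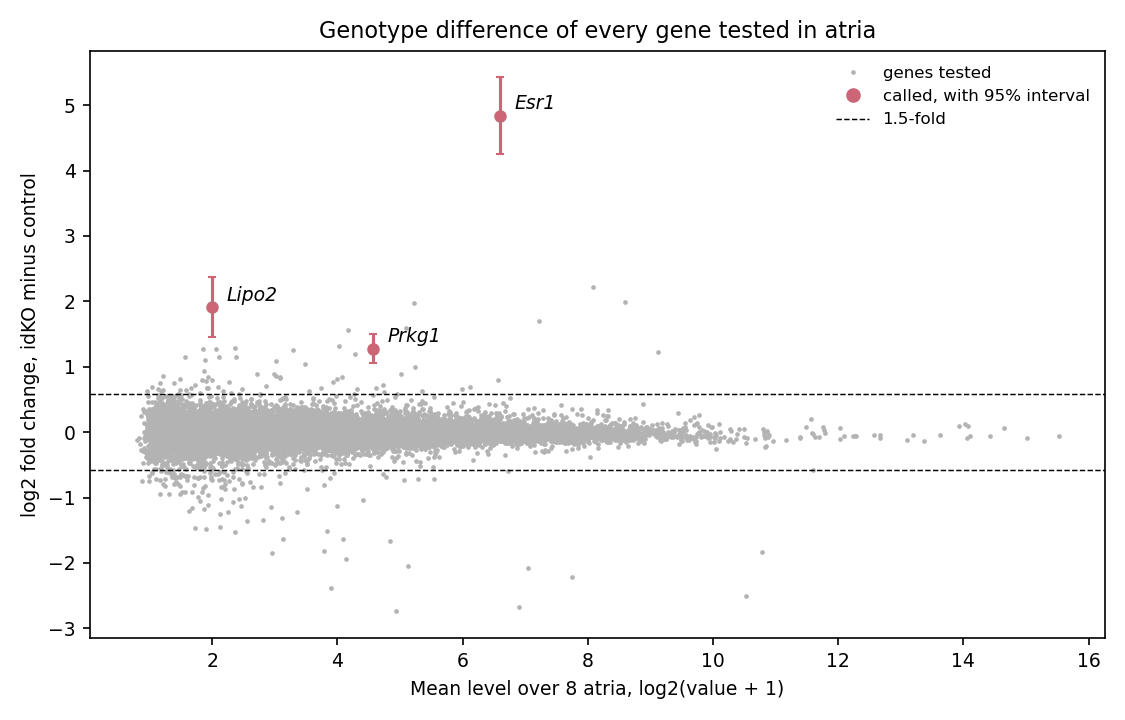
Log2 fold change (idKO minus control) of the 14523 genes tested in atria against their mean level on a log2(value + 1) scale, with 1.5-fold lines dashed and the called genes in red with 95% intervals. The called genes are Esr1, Prkg1 and Lipo2, and most others lie inside the 1.5-fold lines.

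DESeq2, run on the recovered whole reads, called 12 genes of 14516 (0.0827%), 10 of them higher (0.0689%). The 9 genes that limma did not call fall into a few kinds. H19, an imprinted non-coding RNA of fetal growth, measured 72.6, 68.1, 83.1 and 49.6 in control atria and 131, 121, 129 and 95.7 in idKO atria. The groups did not overlap, and the log2 fold change was 0.80, 95% interval 0.50 to 1.11 (limma adjusted p = 0.311, DESeq2 2.8e-05). In ventricles, where H19 was lower throughout, it was called by limma (log2 fold change 0.66, adjusted p = 0.044). In all, the groups did not overlap for 410 genes (2.82%), 221 higher and 189 lower.

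Antigen presentation genes form the second kind. B2m, the light chain of MHC class I, measured 194, 224, 210.2 and 204 in control atria and 287.3, 271, 237 and 268 in idKO atria. H2-Aa, a chain of MHC class II, measured 82.1, 76.5, 78.7 and 74.3 in control atria and 114, 98.5, 91.2 and 113 in idKO atria. All idKO atria exceeded all controls for both, and the log2 fold changes were 0.35, 95% interval 0.20 to 0.50 for B2m and 0.41, 95% interval 0.24 to 0.58 for H2-Aa (limma adjusted p = 0.448 and 0.377, DESeq2 0.0039 for each). H2-Eb1, another class II chain, stood at 64.2 to 85.02 in control and 88.4 to 106 in idKO atria and was not called by either tool (DESeq2 adjusted p = 0.054). In ventricles limma called H2-Aa (0.65, adjusted p = 0.0091) and B2m (0.53, adjusted p = 0.036).

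Slc45a3, a sugar transporter-like protein, measured 11.3, 11.1, 10.8 and 11.1 in control atria and 15.2, 16.98, 15.9 and 16.4 in idKO atria, with little spread in either group. Its log2 fold change was 0.50, 95% interval 0.30 to 0.71 (limma adjusted p = 0.377, DESeq2 0.023). Rasgef1b, an exchange factor for small G proteins, measured 12.1 to 18.3 in control and 19.9 to 24.3 in idKO atria, with a log2 fold change of 0.59, 95% interval 0.32 to 0.86 (limma adjusted p = 0.614, DESeq2 0.024). For 8430408G22Rik the values were 8.64 to 12.7 in control and 14.5 to 24.05 in idKO atria, with a log2 fold change of 0.77, 95% interval 0.42 to 1.13 (limma adjusted p = 0.623, DESeq2 0.018). Eps8l1, related to a regulator of the actin cytoskeleton, was lower: it measured 1.74, 6.18, 4.62 and 5.70 in control atria and 0.975, 0.967, 0.901 and 0.675 in idKO atria. Control atrium 1 lay nearest to the idKO atria, and the log2 fold change was -1.48, 95% interval -2.08 to -0.87 (limma adjusted p = 0.377, DESeq2 1.7e-05). Without control atrium 1, limma called Eps8l1 too.

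The remaining 2 DESeq2 calls were of near-copies. Gm20388 shares 98.5% of its 60-base windows with other genes, nearly all with Galnt2, an enzyme that starts O-linked glycosylation. Gm20388 was lower, with 47.01 ± 7.41 in control and 28.8 ± 6.83 in idKO atria, while Galnt2 stood at 37.03 ± 6.31 in control and 54.5 ± 12.4 in idKO atria (SD, n = 4 each). Limma gave an adjusted p of 0.791 for Gm20388, against 0.022 with DESeq2. The sum of the pair was 99.1% of control (exact permutation p = 0.886). Sms-ps, a pseudogene with all of its windows in Sms (spermine synthase), measured 2.07 ± 1.10 in control and 6.21 ± 0.848 in idKO atria (limma adjusted p = 0.311, DESeq2 0.0027). Sms plus Sms-ps summed to 99.5% of control (exact permutation p = 0.971). Sms-ps made up a small part of that sum, so the sum says little about it.

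A further 2 predicted genes have all their windows in other genes, here mitochondrial ones. Gm10925, a copy of mt-Atp6 (a subunit of ATP synthase), measured 2001, 2865, 2388 and 1850.4 in control atria and 488, 116, 1847 and 229 in idKO atria. Gm28661, a copy of mt-Co2 (a subunit of cytochrome c oxidase), measured 2338, 2816, 2131 and 3038 in control atria and 266, 489.7, 2065 and 969 in idKO atria. The groups did not overlap for either, and neither was called. Added to their mitochondrial genes, the totals were 96.8% and 99.02% of control (exact permutation p = 0.429 and 0.857). Of 8 such sums, which also took in Taf9 with Ak6 (98.8% of control), all chosen after the values were seen, the smallest exact p was 0.171, or 0.971 adjusted over the 8.

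Below the threshold lay the other genes with the largest differences whose groups did not overlap and whose higher mean reached 5. On the higher side these were Cd59a, Cpne2, Htra4, Cebpd, Zfp442, Ifi205 and Kctd12b, beside those already described. Cd59a, which shields cells from complement, measured 48.2 ± 9.02 in control and 77.4 ± 20.8 in idKO atria (SD, n = 4 each; log2 fold change 0.66, 95% interval 0.27 to 1.04). Cebpd, a transcription factor of the acute phase response, measured 29.2 ± 5.33 in control and 41.3 ± 3.90 in idKO atria. On the lower side were Trac, Foxo6os, Dock3, Cdk5rap1, Psmg3, Rsph3a, Xk, Lcmt2, Eps8l2, Rrs1, Zfp934, Magix and the clustered protocadherins Pcdhgb7, Pcdhgb8 and Pcdhgb2. Log2 fold changes ran from 0.66 for Cd59a to 0.44 for Kctd12b, and from -0.76 for Trac, a T cell receptor chain, to -0.36 for Magix. Rsph3a shares 55.7% of its windows with other genes. The 3 protocadherins, cell surface proteins that share their last exons, had -0.49, -0.47 and -0.47. Each of these 22 genes had a limma adjusted p of 0.816 or more.

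The fit set bounds on what may have been missed, on the log2(value + 1) scale. For low genes that scale compresses both differences and intervals, so the bounds there are narrower than for the fold change itself. The half-width of the 95% interval had a median of 0.26 on the log2 scale, and 96.7% of the genes had an interval within 2-fold either way. Of the 60 genes with a log2 fold change of at least 1 in size, 3 were called. The median log2 fold change over all genes was -0.00036, and 49.9% of the genes lay above 0.

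Genes of muscle were described by lists, and in those from here to the contractile machinery limma called 1 gene, Prkg1 in the cyclic GMP pathway. Limma called 0.0207% of all genes, so 0 calls in any of the lists says little about that list. Of 20 atrial identity genes, 19 had an interval within 1.5-fold (median log2 fold change -0.039). Nppa measured 20734, 27316, 26059 and 26466 in control atria and 26982, 26269, 24435 and 26842 in idKO atria, without separation of the groups. Bmp10 measured 1907, 1669, 1941 and 2376 in control atria and 1589, 1753, 1519 and 1851 in idKO atria (log2 fold change -0.23, 95% interval -0.46 to 0.0033). Sln, the atrial regulator of the calcium pump, had a log2 fold change of 0.022, 95% interval -0.17 to 0.22, and Mybphl, an atrial sarcomere protein, of -0.09, 95% interval -0.24 to 0.062. Kcna5, the potassium channel of early atrial repolarisation, stood at 6.07 to 11.03 in control and 10.3 to 11.8 in idKO atria (log2 fold change 0.34, 95% interval -0.007 to 0.68). Tbx5, a heart transcription factor more abundant in atria, measured 234 to 259 in control and 199 to 265 in idKO atria.

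Of 20 cardiac transcription factors, all 20 had an interval within 1.5-fold, with a median of -0.028. Hand2, a factor of heart development, was higher without overlap, at 41.1, 45.8, 37.6 and 42.8 in control atria and 50.6, 52.7, 52.5 and 46.9 in idKO atria (log2 fold change 0.27, 95% interval 0.11 to 0.44). Esrrg, a nuclear receptor of energy metabolism, was lower without overlap, at 34.1, 38.3, 37.6 and 36.2 in control atria and 32.03, 33.1, 33.4 and 32.7 in idKO atria (log2 fold change -0.15, 95% interval -0.30 to 0.0011). Neither was called (limma adjusted p = 0.828 and 0.966).

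Among 19 genes of the conduction system, 14 had an interval within 1.5-fold, and the median log2 fold change was -0.031. Hcn4, the pacemaker channel of the sinus node, measured 13.9 to 24.9 in control and 17.4 to 27.1 in idKO atria, and its log2 fold change of -0.04 had an interval of -0.43 to 0.35. The pacemaker channel subunit Hcn2 measured 9.86 to 12.1 in control and 6.91 to 10.2 in idKO atria, with a log2 fold change of -0.34, 95% interval -0.63 to -0.044. Cntn2, a cell adhesion molecule of conduction fibres, ranged from 29.04 to 80.2 in control and 23.5 to 45.9 in idKO atria. Of 13 sodium channel genes (median -0.029), 2 were lower without overlap, where 1.3% of all genes were. Scn3b, an auxiliary subunit, measured 3.44, 3.85, 4.34 and 2.84 in control atria and 2.61, 2.77, 1.67 and 1.81 in idKO atria. Scn4a, better known from skeletal muscle, measured 17.4, 17.5, 17.3 and 22.5 in control atria and 11.5, 14.2, 15.3 and 17.2 in idKO atria. Scn4b, another auxiliary subunit, had a log2 fold change of -0.59, 95% interval -1.17 to 0.0019.

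Potassium channels had a median of -0.08, with 19 of 23 inside 1.5-fold and 2 lower without overlap (1.3% of all genes were). The first of these was Kcnh2, the channel of the rapid repolarising current, which was separate by a narrow margin and measured 218, 238, 215 and 257 in control atria and 215, 175, 181 and 208 in idKO atria (log2 fold change -0.26, 95% interval -0.43 to -0.077; limma adjusted p = 0.966). The other was Kcnn1, a calcium-activated channel, at 12.9 to 15.5 in control and 10.99 to 12.7 in idKO atria (log2 fold change -0.20, 95% interval -0.43 to 0.021). Its relative Kcnn3 lay the other way, with 1.28 to 2.82 in control and 2.56 to 3.97 in idKO atria. Of 11 calcium channel genes, 10 had a log2 fold change below 0 and 9 an interval within 1.5-fold, with a median of -0.073. Cacnb2, a subunit that carries the channel to the membrane, measured 57.3 to 71.4 in control and 50.3 to 59.3 in idKO atria. For connexins, the proteins of gap junctions, 5 of 7 intervals lay within 1.5-fold, with a median of 0.02. Gja5, the atrial connexin 40, measured 86.1 to 122 in control and 88.5 to 125 in idKO atria, and Gja1, connexin 43, 267 to 396 in control and 252 to 328 in idKO atria.

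Calcium handling genes had 27 of 28 intervals within 1.5-fold, with a median of -0.0034 that changed sign with the scaling. Ryr2, the calcium release channel, had a log2 fold change of -0.13, 95% interval -0.29 to 0.035, and Atp2a2, the calcium pump of the sarcoplasmic reticulum, of -0.088, 95% interval -0.36 to 0.18. Itpr1, an inositol trisphosphate receptor, measured 64.7 to 77.5 in control and 74.4 to 87.3 in idKO atria.

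In the cyclic GMP pathway, to which Prkg1 belongs, Prkg1 was the 1 called gene of 19 (0.0207% of all genes were called), and the median was 0.088. Npr1, the receptor that makes cyclic GMP on binding ANP or BNP, measured 49.6, 43.99, 45.9 and 48.4 in control atria and 57.5, 60.8, 52.7 and 48.9 in idKO atria. Its groups overlapped narrowly, and the log2 fold change was 0.22, 95% interval 0.046 to 0.39. Rgs2, a target of the kinase that damps G protein signals, had a log2 fold change of 0.27, 95% interval 0.0035 to 0.55, and Pde5a, which breaks cyclic GMP down, of 0.33, 95% interval -0.029 to 0.70. Npr3, the clearance receptor for natriuretic peptides, had a log2 fold change of 0.19, 95% interval -0.012 to 0.39. None of these 4 was called. Among 10 natriuretic peptide genes, Corin, the protease that activates ANP, had a log2 fold change of -0.12, 95% interval -0.27 to 0.027 and Nppb, the precursor of BNP, at a log2 fold change of 0.012, 95% interval -0.37 to 0.39. Ide, an enzyme that degrades insulin and natriuretic peptides, lies on chromosome 19 and measured 139, 122, 138 and 105 in control atria and 60.2, 97.4, 107 and 72.7 in idKO atria. The highest idKO value just exceeded the lowest control, the log2 fold change was -0.60, 95% interval -0.94 to -0.25, and limma did not call it (adjusted p = 0.816). In ventricles Ide was called, with -0.64 (limma adjusted p = 0.019).

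The contractile machinery was described by 3 lists. All 18 tested Z-disc genes and all 18 of the intercalated disc had intervals within 1.5-fold, with medians of -0.089 and -0.08. Among sarcomere genes 23 of 28 did, with a median of -0.051 that changed sign under quantile normalisation. Tcap, the cap of titin at the Z-disc, measured 1671, 2174, 2001 and 2097 in control atria and 1623, 1673, 1854 and 1688 in idKO atria (log2 fold change -0.21, 95% interval -0.40 to -0.018). Ctnna1, an adherens junction protein, had a log2 fold change of -0.14, 95% interval -0.28 to -0.0093, and Tmod1, which caps thin filaments, of -0.13, 95% interval -0.28 to 0.013. Mylk4, a myosin light chain kinase, had a log2 fold change of -0.17, 95% interval -0.34 to -0.0044. Among the 12 markers of cardiomyocytes in general, each had a log2 fold change below 0 and an interval within 1.5-fold, with a median of -0.10, and their summed level ran over 61873 to 71956 in control and 59928 to 69039 in idKO atria. The most abundant, Myh6, the main myosin of mouse heart, measured 30931 to 37508 in control and 29942 to 34968 in idKO atria.

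Genes of wall stress gave 0 calls among 19 (0.0207% of all genes were called), with a median of 0.039. Ctgf, a matrix-associated growth factor, measured 349, 362, 465 and 409 in control atria and 392, 721, 532 and 518 in idKO atria. Only idKO atrium 1 fell among the controls, with a log2 fold change of 0.42, 95% interval 0.094 to 0.75 (limma adjusted p = 0.966).

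For energy metabolism the intervals were narrow. All 41 tested genes of the respiratory chain and all 21 of the tricarboxylic acid cycle lay within 1.5-fold, with medians of -0.042 and -0.066. Of these, 32 and 20 were below 0, where 50.1% of all genes were. The summed levels overlapped between the groups. They ran over 21648 to 24606 in control and 21747 to 23137 in idKO atria for the respiratory chain. For the tricarboxylic acid cycle they ran over 13427 to 15109 in control and 13386 to 14271 in idKO atria. In these 2 lists 1 gene was lower without overlap, where 1.3% of all genes were. It was Pdhb, a subunit of pyruvate dehydrogenase, at 435, 492, 487 and 472 in control atria and 429, 412, 418 and 416 in idKO atria (log2 fold change -0.17, 95% interval -0.29 to -0.046). Ndufs1, a subunit of complex I, had a log2 fold change of -0.11, 95% interval -0.23 to 0.0099. In fatty acid oxidation (median 0.0075) 27 of 30 intervals lay within 1.5-fold, with Cpt2, a carnitine transferase of the mitochondrial membrane, at a log2 fold change of -0.14, 95% interval -0.33 to 0.056. Among 27 genes of glycolysis and hypoxia (median -0.019) 25 did, with Slc2a4, the insulin-sensitive glucose transporter, at a log2 fold change of -0.14, 95% interval -0.30 to 0.019. None of the genes in these 4 lists was called, where 0.0207% of all genes were.

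Stress and signalling lists also held no called gene, where 0.0207% of all genes were called. Of 30 interferon response genes, 25 had a log2 fold change above 0 (49.9% of all genes did), with a median of 0.20. Their summed levels overlapped, at 367 to 466 in control and 423 to 500 in idKO atria. Higher without overlap were 2 of the 30 genes, where 1.52% of all genes were. Zbp1, a sensor of nucleic acids, measured 1.04, 0.866, 1.66 and 0.602 in control atria and 2.46, 2.64, 2.32 and 2.78 in idKO atria. Bst2, a tether for virus particles, measured 18.4, 17.2, 20.4 and 18.4 in control atria and 22.9, 24.9, 20.7 and 23.3 in idKO atria. Stat2, a transcription factor that carries the interferon signal, had a log2 fold change of 0.23, 95% interval 0.0038 to 0.45. The lowest limma adjusted p among these genes was 0.816, for Zbp1.

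Among 23 genes of the p53 and DNA damage response the median was 0.0027. Ddit4, a stress-induced inhibitor of mTORC1, measured 17.7, 20.6, 19.8 and 39.2 in control atria and 53.4, 71.5, 39.9 and 31.9 in idKO atria. Control atrium 4 and idKO atrium 4 crossed, the log2 fold change was 0.99, 95% interval 0.43 to 1.56, and limma did not call it (adjusted p = 0.816). In ventricles it was called (0.90, limma adjusted p = 0.014), and the interaction was 0.09 (limma adjusted p = 0.990). Mdm2, the ligase that limits p53, had a log2 fold change of -0.18, 95% interval -0.34 to -0.02. In the unfolded protein response 16 of 17 intervals lay within 1.5-fold, in heat shock 11 of 14 and among clock genes 16 of 18. Chac1, an enzyme of glutathione breakdown, had a log2 fold change of -0.35, 95% interval -0.72 to 0.014, Hspa8, a constitutive chaperone, of -0.25, 95% interval -0.62 to 0.12, and the clock repressor Nr1d1 of -0.16, 95% interval -0.41 to 0.10.

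Immediate early genes varied more, with 10 of 20 intervals within 1.5-fold. Junb measured 23.8, 23.3, 25.02 and 25.1 in control atria and 21.3, 18.7, 22.03 and 20.6 in idKO atria, lower without overlap. Egr1 had a log2 fold change of -0.62, 95% interval -1.24 to -0.013 and Klf2, a flow-responsive factor of endothelium, of 0.43, 95% interval 0.054 to 0.81. Cell cycle genes were low: 13 of 22 were tested, and 5 had an interval within 1.5-fold. Top2a, which untangles replicated DNA, measured 5.30, 4.09, 4.55 and 2.49 in control atria and 4.64, 1.301, 2.32 and 1.48 in idKO atria. Mki67, a marker of cycling cells, measured 5.99, 5.64, 8.15 and 2.38 in control atria and 7.22, 1.70, 2.38 and 1.65 in idKO atria, with the 2 groups overlapping.

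**Figure D3:**
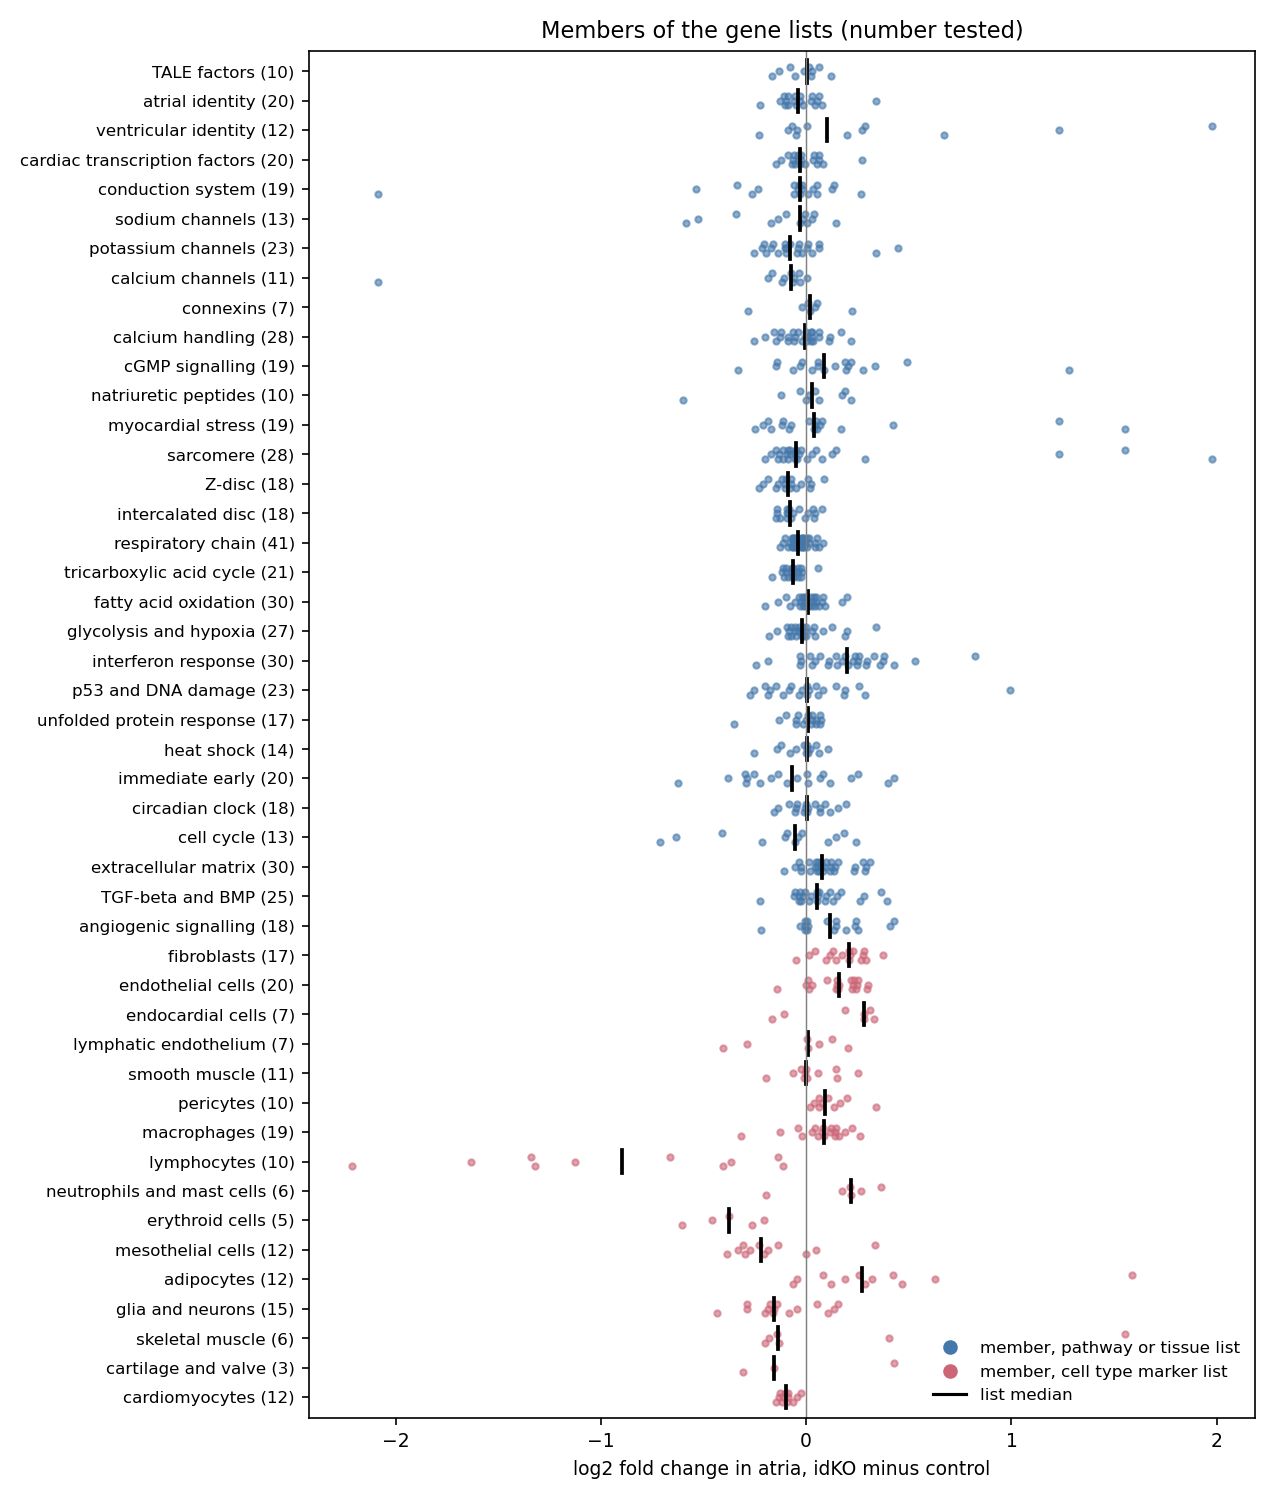
Log2 fold change in atria (idKO minus control) of each tested member of 46 gene lists, one row per list with the number tested, pathway and tissue lists in blue and cell type markers in red, with the list median as a black bar. Most members lie within 0.5 of 0; lymphocyte markers are all below 0 with a median of -0.89, and Prkg1, at 1.28 in the cyclic GMP row, is the 1 called member.

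Markers of the other cells of the atrial wall tended upwards in idKO atria, without a call. For endothelial cells 19 of 20 markers had a log2 fold change above 0, with a median of 0.16, and 6 were higher without overlap (1.52% of all genes were). Pecam1, an adhesion molecule of vessels, measured 305, 277, 306 and 267 in control atria and 358, 371, 307 and 334 in idKO atria. Mmrn2, an endothelial matrix protein, measured 80.9, 92.01, 88.03 and 78.97 in control atria and 113, 104, 95.5 and 107 in idKO atria. Tie1, an endothelial receptor of the angiopoietin system, measured 102, 98.5, 103 and 86.4 in control atria and 113, 120.2, 113 and 115 in idKO atria. Ramp2, a partner of the adrenomedullin receptor, was likewise separate at 57.1, 52.4, 62.1 and 57.03 in control atria and 63.8, 65.01, 69.5 and 68.3 in idKO atria. The log2 fold changes of these 4 were 0.25, 0.30, 0.24 and 0.22, and the lowest limma adjusted p was 0.816, for Mmrn2. Summed over the 20 markers, the level was 2369 to 2771 in control and 2689 to 2992 in idKO atria.

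Endocardial markers were similar. Of 7 tested, 5 lay above 0, with a median of 0.28. The other 2, Tmem108 at -0.17 and Nfatc1 at -0.11, lay below 0. Foxc1, a forkhead factor, measured 33.4, 33.1, 30.03 and 36.8 in control atria and 39.9, 42.7, 40.1 and 39.4 in idKO atria, and Cytl1, a secreted protein, 75.5, 68.8, 75.5 and 67.5 in control atria and 78.5, 107, 88.3 and 85.4 in idKO atria. Both were higher without overlap, where 1.52% of all genes were. Their log2 fold changes were 0.28, 95% interval 0.11 to 0.45, and 0.31, 95% interval 0.12 to 0.50. Plvap, of the diaphragms of fenestrated vessels, had a log2 fold change of 0.28, 95% interval 0.073 to 0.49, and Cgnl1, a junction protein, of 0.33, 95% interval 0.081 to 0.58. The summed level of the 7 was 619 to 737 in control and 699 to 922 in idKO atria. Among 18 genes of angiogenic signalling the median was 0.12. Tek, the angiopoietin receptor, had a log2 fold change of 0.25, 95% interval 0.049 to 0.46, and Flt1, a VEGF receptor, of 0.14, 95% interval 0.021 to 0.27. In the TGF-beta and BMP list, Eng, a co-receptor of endothelium, had a log2 fold change of 0.15, 95% interval 0.019 to 0.28.

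Fibroblast markers lay above 0 for 16 of 17, with a median of 0.21 and summed levels of 5045 to 6818 in control and 5939 to 7291 in idKO atria. Medag, a fibroblast gene of adipose differentiation, measured 34.8, 31.6, 32.6 and 24.9 in control atria and 37.1, 52.6, 41.04 and 32.4 in idKO atria. The extracellular matrix list had 25 of 30 members above 0, a median of 0.077 and 24 intervals within 1.5-fold. Lum, a collagen-binding proteoglycan, had a log2 fold change of 0.29, 95% interval -0.039 to 0.62, and Postn, a matrix protein of activated fibroblasts, of 0.28, 95% interval -0.066 to 0.62. All 10 pericyte markers lay above 0, with a median of 0.092. Macrophage markers lay above 0 for 15 of 19, with a median of 0.086. C1qa, a complement chain, had a log2 fold change of 0.19, 95% interval -0.018 to 0.39. Itgam went the other way, at -0.32, and was 1 of 4 macrophage markers below 0. The medians of these lists kept their sign when values were rescaled to equal column sums, by TMM or by quantiles. How far a shift in the mix of cells, against the cardiomyocyte median of -0.10, is part of these values was not tested.

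Markers of the remaining cell types went in both directions. Mesothelial markers, of the outer lining of the heart, had a median of -0.22, with summed levels of 389 to 505 in control and 248 to 499 in idKO atria. Upk3b, one of them, measured 185, 154, 183 and 161 in control atria and 168, 183, 127 and 93.6 in idKO atria. Erythroid markers had a median of -0.38 over 5 genes, with Hbb-bs, a beta globin, at 35.5 to 81.3 in control and 24.2 to 58.6 in idKO atria. Markers of glia and neurons had a median of -0.16, with Ngfr, a neurotrophin receptor, at a log2 fold change of -0.43, 95% interval -0.87 to -0.0041. Of 7 lymphatic markers 5 lay above 0, while Pdpn, which mesothelium also makes, measured 19.8, 20.8, 18.03 and 15.6 in control atria and 15.6, 17.3, 13.1 and 9.85 in idKO atria. Smooth muscle markers had 5 of 11 above 0, markers of neutrophils and mast cells 5 of 6 (median 0.22), of cartilage and valve 1 of 3 and of skeletal muscle 2 of 6. No marker of these types was called, and of the thymus and lung markers 1 was high enough to be tested.

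The widest differences in the atria lay between mice of the same genotype. All 10 tested lymphocyte markers had a log2 fold change below 0, with a median of -0.89, but 2 libraries carried this. Ighm, the heavy chain of IgM, measured 213, 198, 619.7 and 128 in control atria and 358, 7.91, 180.5 and 11.8 in idKO atria. Cd79a, a chain of the B cell receptor, measured 11.2, 10.4, 16.5 and 4.61 in control atria and 13.2, 0.367, 5.43 and 0.189 in idKO atria. Ms4a1, the B cell protein CD20, measured 12.1, 7.73, 16.8 and 4.55 in control atria and 14.01, 0.634, 4.23 and 1.27 in idKO atria. In idKO atria 2 and 4 these genes were far below every control, while idKO atria 1 and 3 lay within or close to the control range. The summed level of the 10 markers was 153 to 700.1 in control and 17.7 to 436 in idKO atria, and control ventricles averaged 9.21 for Ighm.

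Antibody genes varied in a similar way. Igkc, the kappa light chain, measured 90.96, 121, 339 and 72.2 in control atria and 239, 1.43, 78.99 and 2.56 in idKO atria. Jchain, which joins IgM and IgA, measured 24.8, 28.2, 104 and 24.2 in control atria and 54.8, 0.567, 35.1 and 1.16 in idKO atria. Both were again lowest in idKO atria 2 and 4. Ighg1, a heavy chain of IgG, measured 7.23, 74.7, 13.2 and 36.1 in control atria and 105, 0.0334, 0.0819 and 0.405 in idKO atria, so that idKO atria 2, 3 and 4 were far below every control and idKO atrium 1 was the highest of all 8. None of these genes was called.

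**Figure D4:**
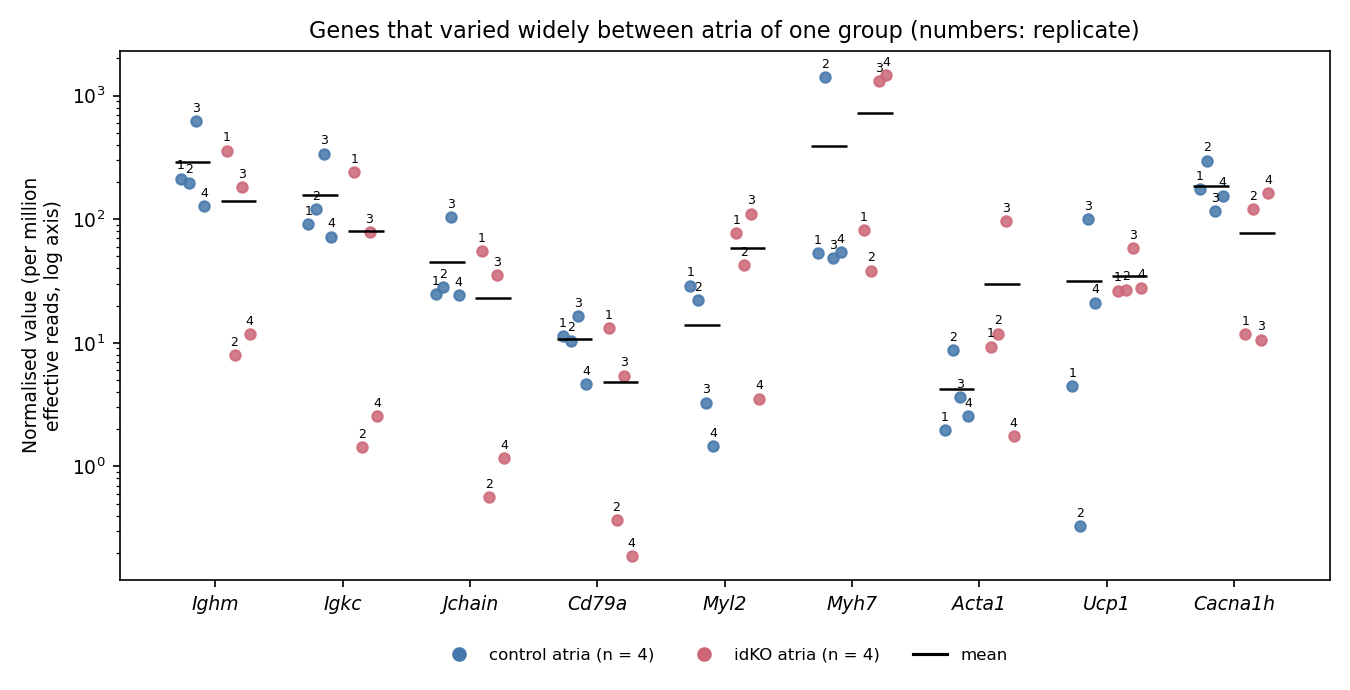
Normalised value (log axis) of 9 genes with a wide spread in each control atrium (blue) and each idKO atrium (red), labelled by replicate, with the mean of 4 as a black line. Ighm, Igkc, Jchain and Cd79a are lowest in idKO atria 2 and 4, and Cacna1h is lowest in idKO atria 1 and 3.

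Muscle genes of other chambers and muscles also differed from mouse to mouse. Myh7, the slow myosin of fetal and stressed heart, measured 53.1, 1404, 48.3 and 54.3 in control atria and 82.04, 38.3, 1303 and 1472 in idKO atria. Control atrium 2 and idKO atria 3 and 4 stood far above the others, so that the high libraries came from both genotypes. Its transcripts share 17.0% of their windows, mostly with Myh6, and the sum of Myh6 and Myh7 was 94.7% of control (exact permutation p = 0.371). Myl2 measured 28.95, 22.01, 3.28 and 1.46 in control atria and 77.05, 42.8, 111 and 3.54 in idKO atria, and every atrium was under 2% of the control ventricle mean of 8396. Myl3, the essential light chain of ventricles, measured 94.98, 91.5, 103 and 102 in control atria and 139.5, 104, 175 and 79.5 in idKO atria. Irx3, a transcription factor of the ventricular conduction system, measured 1.003 to 2.86 in control and 1.91 to 4.83 in idKO atria. Acta1, the skeletal actin gene, measured 1.97, 8.75, 3.63 and 2.55 in control atria and 9.32, 11.8, 96.4 and 1.75 in idKO atria, with idKO atrium 3 alone far above the rest. Of 12 genes of ventricular identity, 7 lay above 0, 6 had an interval within 1.5-fold and 0 were called (0.0207% of all genes were).

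Cacna1h, a T-type calcium channel subunit, measured 174, 298, 117 and 155 in control atria and 11.8, 121, 10.6 and 163 in idKO atria. It was low in idKO atria 1 and 3 and within the control range in idKO atria 2 and 4, with a log2 fold change of -2.08, 95% interval -3.74 to -0.43 and no call (limma adjusted p = 0.966). The B cell genes divide the same idKO libraries in the opposite order, being low in 2 and 4. Ucp1, the uncoupling protein of brown fat, measured 4.45, 0.329, 101 and 21.2 in control atria and 26.4, 26.98, 58.6 and 27.99 in idKO atria, and Plin1, which coats lipid droplets of adipocytes, 17.8, 11.5, 47.5 and 38.01 in control atria and 23.99, 20.05, 72.98 and 35.9 in idKO atria. They were both highest in control atrium 3 and idKO atrium 3, and 10 of 12 adipocyte markers had a log2 fold change above 0 (median 0.27). Eno1b and Rpl3-ps1, near-copies of Eno1 and Rpl3 with 83.5% and 95% of their windows in other genes, were each at the value of 0 reads in some libraries and at or above 30 in others. Eno1b was so in control atrium 4 and idKO atria 1 and 4, and Rpl3-ps1 in control atrium 1. Across all genes tested, the standard deviation within groups had a median of 0.16 on the log2(value + 1) scale.

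The ventricles of the same mice show how the atrial values differ. The interaction, which tests whether the genotype effect in atria differs from that in ventricles, was called by limma for 44 of 14871 genes (0.296%): 40 more positive in atria and 4 more positive in ventricles. Rescaled to equal column sums the split was 17 and 5. With the mouse as a random block it was called for 71 genes, 54 and 17, and the 44 were all among them. The count was 19 without idKO mouse 2, 23 without idKO mouse 3 or control mouse 4, and 24 without control mouse 2 or 3. Ttll1, a tubulin polyglutamylase, measured 16.97, 13.1, 12.5 and 15.8 in control atria and 14.4, 14.6, 14.99 and 14.2 in idKO atria. The groups lay on top of each other, while in ventricles Ttll1 went from 60.1 to 17.5, for an interaction of 1.73 (limma adjusted p = 1.9e-06). Efnb3, an ephrin ligand, measured 10.2, 15.6, 9.56 and 15.3 in control atria and 14.7, 9.84, 8.27 and 7.59 in idKO atria, against means of 104 and 11.03 in ventricles (interaction 2.83, limma adjusted p = 6.0e-05).

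Meis2 itself was among the called genes. Its log2 fold change was -0.16 in atria and -1.49 in ventricles (interaction 1.33, limma adjusted p = 2.7e-04). For Meis1 the values were 0.064 and -0.24, and the interaction was not called (limma adjusted p = 0.681). Abcc9, a subunit of ATP-sensitive potassium channels, had 0.061 in atria and -1.13 in ventricles. Rit1, a small GTPase, had 0.041 and -0.86. Entpd5, a nucleotide hydrolase of the endoplasmic reticulum, had -0.21 and -1.11, and its atrial groups, at 163 to 214 in control and 151.003 to 162 in idKO atria, did not overlap. Fhl2, a LIM-domain protein, had -0.23 and -1.48. The interaction adjusted p of these 4 ran from 2.8e-04 to 0.0012.

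The genes of the natriuretic peptides ANP and BNP were among those with a called interaction. Nppa had a log2 fold change of 0.063 in atria and 2.45 in ventricles (interaction -2.39, limma adjusted p = 0.002), from a control level that was over 100 times as high in atria. Nppb had 0.012 and 1.19 (interaction -1.18, limma adjusted p = 0.043). Gja1 had 0.0074 and -1.11, Mylk4 -0.17 and -1.12, and Ctnna1 -0.14 and -0.53, each with a called interaction. Acta1, another gene of strained myocardium, had 1.56 and 1.42 (interaction adjusted p = 0.992, limma). Ryr2, at -0.13 and -0.66, did not reach the threshold (interaction adjusted p = 0.079, limma). For Kcnh2 the values were -0.26 and -0.87 (limma adjusted p = 0.140).

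**Figure D5:**
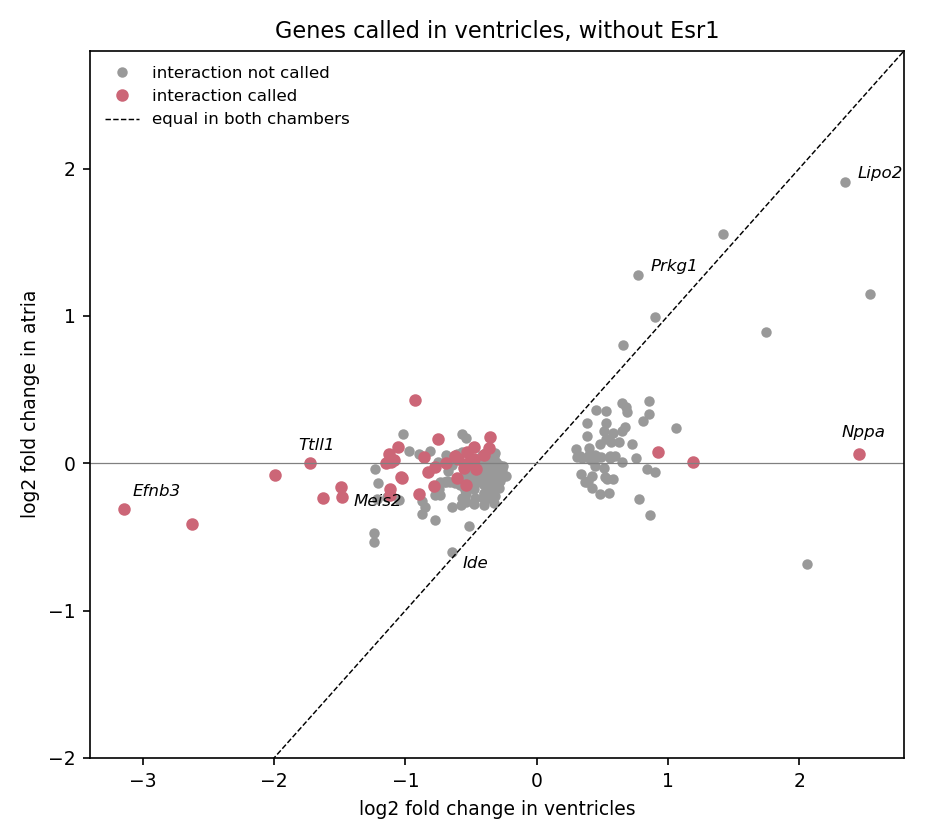
Log2 fold change in atria against that in ventricles for the genes called in ventricles and tested in atria, without Esr1, with the line of equal change dashed and genes with a called interaction in red. Most genes lie near 0 on the atrial axis, while Prkg1 lies above the dashed line and Lipo2 just below it.

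Limma called 70 genes higher and 197 lower in idKO ventricles. Of the 70, 68 were tested in atria, where their median log2 fold change was 0.056 against 0.56 in ventricles. Without control atrium 2 or idKO atrium 1 this median was 0.09. In atria 50 of the 68 lay above 0 (49.9% of all genes did), 9 were higher without overlap (1.52%) and 3 were called (0.0207%). For 59 of the 68 the 95% interval in atria did not contain the ventricular value. Of the 197, 191 were tested in atria, with a median of -0.09 against -0.48 in ventricles. In atria 146 of the 191 lay below 0 (50.1% of all genes did), 9 were lower without overlap (1.3%) and limma called 0. For 168 of the 191 the atrial interval left out the ventricular value. The ventricular values of these sets were chosen for their size, so they are given as a description. Atria and ventricles came from the same mice, and deviations of single mice were correlated between the chambers. The shares over all genes are therefore not an independent baseline for the atrial counts of these sets. The interaction itself was called for 4 of the 68 and 37 of the 191, where 0.296% of all genes were. The ventricles that chose these sets also enter the interaction, so an excess of calls is built in. These counts are therefore a description too.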

How the data were processed

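RNA of atria and ventricles of 8 mice was sequenced as 60-base single reads. Per the submitters' processing notes, cutadapt, RSEM 1.3.1 and build GRCm38 were used; for the scaling tool and the gene filter, "not given in the sources used here" applies. Values as deposited are a scaled signal per gene and library, which the authors had divided by an effective library size. In the atria 100% of them were whole reads, plus 0.5 read, over 1 constant per library, within a tolerance of 0.01 read. The recovered reads came to 13.1 to 19.8 M per atrium, with effective sizes of 0.929 to 0.986 of these. A design for raw counts or for normalised values had been prepared, and the second form was used.

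The main test was limma 3.58.1 with a trended prior (R 4.3.3) on log2(value + 1), fitted to the 8 atria, with Benjamini-Hochberg adjustment over 14523 genes and a threshold of 0.05. The interaction was fitted to all 16 libraries over 14871 genes. DESeq2 1.42.0 and edgeR 4.0.16 were run on recovered reads. On simulated data limma recovered 60% of 1.5-fold and 82% of 2-fold changes in the atrial comparison of 14523 genes, with 12 false calls, and 17% and 67% in the interaction of 14871 genes, with 9. In the real atria, limma called 3 of the 60 genes with a log2 fold change of at least 1 in size. The share of true differences recovered in the real libraries was not tested, for the atria or for the interaction. The 60%, 82%, 17% and 67% are not an estimate of it. P-values of the atrial comparison measure the spread between animals. The main interaction fit took the 16 libraries as separate, without the mouse as a block. Its p-values therefore leave out the pairing of chambers within a mouse. Pairs of same-group libraries differed by 10.4 to 16.0 in chi-square per gene, so none was a duplicate.

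Mouse numbers in the labels tie each atrium to a ventricle. Deviations from the group means correlated at 0.204 to 0.327 between the chambers of 1 mouse over 12945 genes, and each of the 8 atria correlated best with its own ventricle. Control and idKO atria share no mouse.

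The comparison and 47 gene lists were chosen with earlier results of these data known. Genes named are the targeted genes, those called by any tool, the 15 largest differences each way among non-overlapping genes with a mean of at least 5 in the higher group, up to 4 list members with the smallest p, the 8 leading interaction genes, the 10 with the largest spread, neighbours of called genes, and members that say what a list holds. Predicted genes were passed over among the largest differences; Gm10925, Gm28661 and the 8 sums were chosen after their values were seen. Names of 205 of 206 unnamed rows came from GENCODE M21, which gave coordinates for 16103 genes. A few genes are not reported here.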

Additional observations from a re-analysis of the deposited data

Results flagged for a closer look

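In 20 of 302 groups of 4 atria tested (6.62%), 1 library stood apart from the other 3, where chance gives about 5%. Among muscle and channel genes these were Myh7 in control atrium 2, at 1404, Acta1 in idKO atrium 3, at 96.4, Hcn4 in idKO atrium 4, at 27.1, Scn4a in control atrium 4, at 22.5, Kcnn3 in idKO atrium 2, at 3.97, and Gja1 in control atrium 1, at 396. Among genes of other cells they were Jchain in control atrium 3, at 104, Ighg1 in idKO atrium 1, at 105, Ucp1 in idKO atrium 3, at 58.6, Ngfr in control atrium 1, at 17.5, Eng in control atrium 4, at 468, and Flt1 in idKO atrium 1, at 126. Ddit4 stood apart in control atrium 4, at 39.2, and Mki67 in idKO atrium 1, at 7.22. The others were Stambpl1 in idKO atrium 2, at 3.04, Asah2 in idKO atrium 1, at 22.5, Cd59a in control atrium 2, at 34.8, Pcdhgb8 in control atrium 1, at 10.01, Pcdhgb2 in control atrium 2, at 8.63, and Rpl3-ps1 in idKO atrium 4, at 258.

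For 13 of the named genes the genotype effect differed between atria and ventricles by the interaction test of limma at an adjusted p under 0.05. The difference, atria minus ventricles on the log2 scale, was 1.33 for Meis2, -5.82 for Esr1, 2.83 for Efnb3, 1.73 for Ttll1, 1.25 for Fhl2, 1.19 for Abcc9, 1.12 for Gja1, 0.95 for Mylk4, 0.90 for Rit1, 0.90 for Entpd5 and 0.39 for Ctnna1. For the natriuretic peptides it was -2.39 for Nppa and -1.18 for Nppb.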

How the results depend on the processing

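In atria 3 genes were called under other pseudocounts, without a filter, after rescaling, TMM or quantile normalisation, without a trended prior, with sample weights, with edgeR, and in fits to all 16 libraries with or without the mouse as a replicate block; Esr1, Prkg1 and Lipo2 were the genes each time. DESeq2 called 12, and a filter at 5 CPM left 2, since Lipo2 was not tested there. Leaving out 1 atrium gave 3 to 5 calls: without control 1 there were 5, with Eps8l1 and Slc2a12 added, while Rab3b, Sms-ps, Gm10925 and Cep83os each entered in 1 fit. The interaction, with 44 genes, was called for 22 after rescaling to equal column sums, for 24 without a trended prior, and for 71 with the mouse as a random and 102 as a fixed replicate block; the pairing changed no other call. Leaving out a mouse gave 19 to 39. Over the same fits Meis1 ranged from 101% to 110% of control (100.7 to 109.9) and Meis2 from 86.7% to 92.8%, 10824 to 11000 intervals lay within 1.5-fold, and the list members called stayed at 1. Of 3162 alternative values of the named genes, 3148 were counted as on the same side of the threshold, some of them with a changed sign while uncalled. Such a change of sign came in 15 genes over the fits, a count that leaves out the sums with near-copies. A further 12 values passed the threshold, in 10 genes. The last 2 were the sums of Lipo2 with its copies, counted as lost. Sums were counted by whether the gene itself was called and not by their own p, so they do not test the calls. No called gene changed direction. Rescaling moved the median of all genes to at most 0.017. The medians of the calcium handling and smooth muscle lists changed sign under rescaling to equal column sums or quantile normalisation, and those of the TALE, sarcomere, heat shock, clock and lymphatic lists under quantile normalisation. Depth limits genes such as Lipo2, Lipo4 and Ighg1, whose lowest libraries hold 0 to 5 reads. The lowest values of Cd79a, Ucp1, Eno1b and Rpl3-ps1 rest on as few.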
